A study of Mus musculus with 36 samples.

Results

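Exoc2, Ssbp2, Polr3g, Kifap3 and Dcakd are 5 genes of the 25626 in the deposited table that were picked because their read counts were lower in hearts labelled cSirt4-Tg than in control hearts under all 3 treatments of the study. The study measured RNA of whole mouse hearts in 6 groups of 6 libraries. Con-Sham and Tg-Sham hearts came from control and cSirt4-Tg mice after sham surgery with vehicle. Con-TAC and Tg-TAC hearts came from the same genotypes after transverse aortic constriction (TAC, a surgical narrowing of the aorta that loads the left ventricle) with vehicle. Con-TAC-MQ and Tg-TAC-MQ hearts came from TAC mice given MitoQ, an antioxidant that accumulates in mitochondria. The study asked which pathways might link mitochondrial reactive oxygen species to the cardiomyopathy of cSirt4-Tg mice. The labels name no age, sex, strain or promoter for the transgene. Sirt4 is a mitochondrial sirtuin.

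The 5 genes act in unrelated parts of the cell. Exoc2 (Sec5) is a subunit of the exocyst, the complex that tethers secretory vesicles to the plasma membrane and is an effector of the Ral GTPases. Ssbp2 is a nuclear protein that binds and stabilises the LIM domain-binding adaptor Ldb1, a cofactor of LIM-homeodomain and LMO factors. Polr3g is a subunit of RNA polymerase III, which transcribes transfer RNAs and 5S ribosomal RNA, and its paralog Polr3gl takes the same place in an alternative form of the enzyme. Kifap3 is the accessory subunit of kinesin-2, which moves cargo along microtubules and carries the intraflagellar transport trains of cilia. Dcakd carries a dephospho-CoA kinase domain, the activity of the last step of coenzyme A synthesis.

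In the deposited coordinates (mouse build mm39), 3 of the 5 genes lie on chromosome 13 and the other 2 on chromosomes 1 and 11. Exoc2 (ENSMUSG00000021357) spans chr13:30997902-31158076 on the minus strand. Polr3g (ENSMUSG00000035834) spans chr13:81821962-81859132 on the minus strand, and its start position is 50.8 Mb from that of Exoc2. Ssbp2 (ENSMUSG00000003992) spans chr13:91608402-91851548 on the plus strand, 9.79 Mb beyond Polr3g. Kifap3 (ENSMUSG00000026585) spans chr1:163607152-163744678 on the plus strand. Dcakd (ENSMUSG00000020935) spans chr11:102884873-102919159 on the minus strand.

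The stretch before the RefSeq start of Exoc2 held an exon of Gm5447, so it is not shown. The RefSeq starts of Ssbp2 and Dcakd lay 814 and 11186 bases inside the gene, so theirs are not shown either. Polr3g shares its start region with a neighbour that can be compared with it, and Kifap3 is the member with the smallest difference in sham hearts. The promoters of Polr3g and Kifap3 are shown, whose stretches held no annotated exon. Both are the 250 bases before the RefSeq start on GRCm38.p6, written 5′ to 3′ on the strand of the gene, with GC boxes (GGGCGG or CCGCCC) and CCAAT boxes (CCAAT or ATTGG) in capitals. The first is chr13:81711014-81711263 on the minus strand and the second chr1:163779333-163779582 on the plus strand.
Polr3g: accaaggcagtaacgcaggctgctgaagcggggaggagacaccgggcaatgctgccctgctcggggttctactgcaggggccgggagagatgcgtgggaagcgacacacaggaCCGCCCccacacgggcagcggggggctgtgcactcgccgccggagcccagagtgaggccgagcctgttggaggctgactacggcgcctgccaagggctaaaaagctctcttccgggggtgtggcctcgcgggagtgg
Kifap3: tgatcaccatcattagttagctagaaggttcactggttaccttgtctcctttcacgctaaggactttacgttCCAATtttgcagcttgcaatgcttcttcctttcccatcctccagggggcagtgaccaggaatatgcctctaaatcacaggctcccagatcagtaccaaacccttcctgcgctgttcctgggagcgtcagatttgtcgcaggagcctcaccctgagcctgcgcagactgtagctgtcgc
The Polr3g stretch held 1 GC box and no CCAAT box, and the Kifap3 stretch 1 CCAAT box and no GC box. Among 32851 RefSeq windows of 250 bases, searched on both strands, 32.7% held a GC box and 33.8% a CCAAT box. A TATA box (TATAAA or TTTATA, in 12.4% of windows) and an E-box (CACGTG, in 6.02%) were in neither stretch. Of the Polr3g stretch, 97 bases are also part of the window before the start of Mblac2, which is transcribed away from Polr3g on the other strand.

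Normalized read counts below are reads divided by the size factor of the library, so they can be compared for 1 gene across libraries and not between genes. Libraries held 14834719 to 60010648 reads (median 28365692). Differences are log2 differences of (normalized read count + 1) fitted by limma over all 36 libraries, with the standard error of the fit (SE), and a gene was called where the adjusted p of limma was under 0.05. Sirt4 itself did not separate the labels. Its normalized read count was 412 ± 96.6 in Con-Sham and 377 ± 48.0 in Tg-Sham, 341 ± 49.6 in Con-TAC and 362 ± 57.8 in Tg-TAC, and 353 ± 18.6 in Con-TAC-MQ and 349 ± 22.5 in Tg-TAC-MQ (mean ± SD, n = 6). The log2 difference was -0.11 in sham, 0.09 in TAC and -0.02 with MitoQ, with exact two-sided permutation p of 0.539, 0.528 and 0.742 (adjusted p = 0.742 for each, 3 tests, smallest possible p 0.00216). Genotype below is that of the label, and whether reads of the transgene would be counted at Sirt4 was not tested. All 8 cardiomyocyte markers examined were present in all 6 groups.

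Exoc2 had the largest difference between the labels in sham and was the lone member called in all 3 contrasts. In sham hearts its normalized read count ran from 552 to 711 in controls (median 630, mean 635 ± 61.1) and from 286 to 393 in cSirt4-Tg hearts (median 341, mean 339 ± 36.3). After TAC it ran from 468 to 632 in controls (median 615, mean 589 ± 61.9) and from 367 to 544 in cSirt4-Tg hearts (median 423, mean 444 ± 76.5). With MitoQ it ran from 635 to 734 in controls (median 679, mean 683 ± 40.8) and from 361 to 442 in cSirt4-Tg hearts (median 390, mean 398 ± 31.4). The 2 labels did not overlap in sham or with MitoQ. After TAC they overlapped through 1 low control library, Con-TAC 5 at 468, and the 2 highest Tg-TAC libraries, at 544 and 528. The log2 difference was -0.90 in sham, -0.42 after TAC and -0.78 with MitoQ (SE 0.09 for each), so the mean was lower by 46.6%, 24.6% and 41.7%. In bulk tissue, fewer cells that express a gene and less RNA per cell cannot be told apart.

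Ssbp2 showed the same order of the groups. In sham hearts controls ran from 643 to 795 (median 736, mean 725 ± 60.6) and cSirt4-Tg hearts from 362 to 559 (median 465, mean 462 ± 88.4). After TAC controls ran from 652 to 805 (median 720, mean 720 ± 53.0) and cSirt4-Tg hearts from 474 to 701 (median 637, mean 609 ± 91.5). With MitoQ controls ran from 691 to 789 (median 736, mean 740 ± 43.2) and cSirt4-Tg hearts from 405 to 543 (median 463, mean 466 ± 50.9). Control hearts stayed in 1 narrow band under all 3 treatments, and the Tg-TAC hearts alone of the cSirt4-Tg hearts reached into it. The log2 difference was -0.67 in sham, -0.25 after TAC and -0.67 with MitoQ (SE 0.10 for each).

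Polr3g differed most with MitoQ. In sham hearts controls ran from 176 to 251 (median 193, mean 202 ± 27.4) and cSirt4-Tg hearts from 110 to 156 (median 123, mean 126 ± 16.6). After TAC controls ran from 184 to 333 (median 256, mean 252 ± 54.9) and cSirt4-Tg hearts from 143 to 238 (median 184, mean 188 ± 42.8). With MitoQ controls ran from 205 to 271 (median 240, mean 238 ± 26.2) and cSirt4-Tg hearts from 120 to 157 (median 132, mean 134 ± 12.3). Both labels were widest after TAC, where they overlapped. The log2 difference was -0.67, -0.43 and -0.82 in the same order (SE 0.14 for each).

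Kifap3 had the smallest differences of the 5 in sham and with MitoQ. In sham hearts controls ran from 1117 to 1394 (median 1200, mean 1219 ± 99.7) and cSirt4-Tg hearts from 988 to 1186 (median 1034, mean 1049 ± 74.1). After TAC controls ran from 1028 to 1172 (median 1153, mean 1124 ± 59.0) and cSirt4-Tg hearts from 759 to 1044 (median 872, mean 882 ± 102). With MitoQ controls ran from 1020 to 1338 (median 1189, mean 1189 ± 115) and cSirt4-Tg hearts from 874 to 983 (median 951, mean 946 ± 38.3). In sham a single cSirt4-Tg library, at 1186, overlapped the controls, and with MitoQ none did. The log2 difference was -0.22, -0.36 and -0.33 (SE 0.07 for each), and unlike Exoc2, Ssbp2 and Polr3g the value after TAC was not the smallest of the 3.

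Dcakd was lower by a similar amount under each treatment, with a wide spread after TAC. In sham hearts controls ran from 866 to 1115 (median 1006, mean 993 ± 91.0) and cSirt4-Tg hearts from 543 to 851 (median 653, mean 669 ± 105). After TAC controls ran from 555 to 1147 (median 982, mean 915 ± 203) and cSirt4-Tg hearts from 359 to 1138 (median 652, mean 666 ± 260). With MitoQ controls ran from 825 to 1031 (median 886, mean 907 ± 86.8) and cSirt4-Tg hearts from 580 to 690 (median 674, mean 654 ± 41.9). Both labels were wider after TAC than in sham. The ends of the range were Tg-TAC 6 at 1138 and Tg-TAC 4 at 359 in cSirt4-Tg hearts, and Con-TAC 5 at 1147 and Con-TAC 6 at 555 in controls. The log2 difference was -0.58, -0.51 and -0.47 (SE 0.16 for each).

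**Figure D1:**
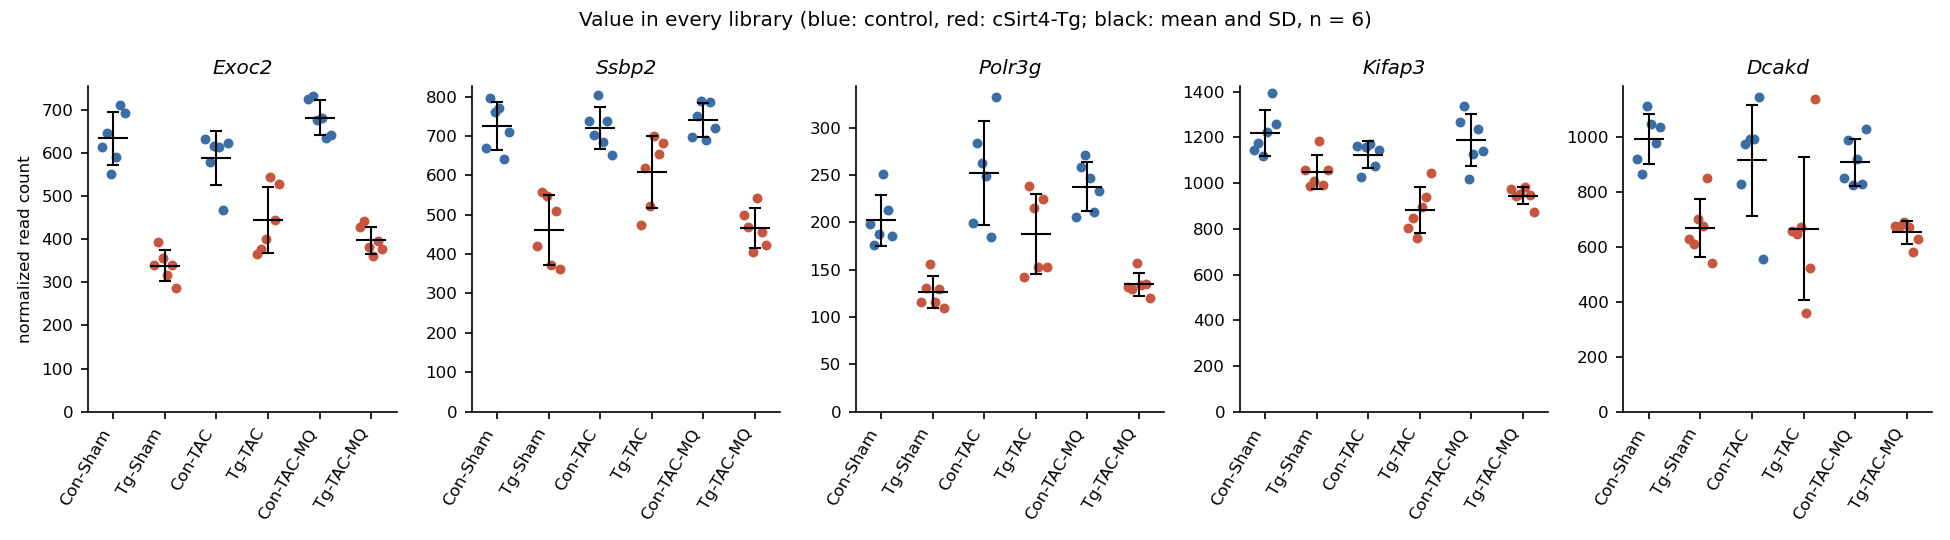
Normalized read count of each gene (vertical axis, from 0) in all 36 libraries by group (horizontal axis), with controls in blue, cSirt4-Tg hearts in red and black bars for the mean and SD (n = 6). The red points lie below the blue ones of the same treatment in sham and MitoQ hearts, apart from 1 Kifap3 library in sham at 1186, and reach up into the blue points after TAC.

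Over the 3 treatments, 16 of 18 cSirt4-Tg libraries were below the lowest control of their treatment for Exoc2 and for Kifap3, 15 for Ssbp2 and for Polr3g, and 14 for Dcakd. All 6 cSirt4-Tg libraries were below all 6 controls for 4 of the 5 genes in sham (1.14% of 16275 genes tested), for none after TAC (0.412%) and for all 5 with MitoQ (0.307%). In sham 3 of the 5 were called lower (0.086% of all genes), after TAC 2 (3.29%) and with MitoQ 3 (0.0246%). These contrasts are those the genes were picked on, so the counts describe the choice. Exoc2 was called in all 3 contrasts, Ssbp2 and Polr3g in sham and with MitoQ, Kifap3 after TAC alone, and Dcakd in none. Which gene was called where depended on the fit. Fitted to the 12 libraries of a contrast alone, limma no longer called Exoc2 (adjusted p = 0.207) or Kifap3 (adjusted p = 0.175) after TAC, and it called Dcakd in sham (adjusted p = 0.00212) and with MitoQ (adjusted p = 0.0170). With the class of name numbers described below as a covariate, Dcakd was called in sham (adjusted p = 0.0268) and after TAC (adjusted p = 0.00221) and Kifap3 with MitoQ (adjusted p = 0.0237). Without Tg-Sham 6 the sham call of Polr3g was lost (adjusted p = 0.0519). Each of the 7 uncalled values of the 15 was called under at least 1 alternative or without 1 library, 6 of them with limma weights per library (array weights). With these weights 42 genes of the whole table were called lower in all 3 contrasts, against 2 without them. In the fit over all 36 libraries 2 genes of the whole table (0.0123%) were called lower in all 3 contrasts, Exoc2 and the dystrophin gene Dmd on chromosome X (log2 difference -1.15, -0.94 and -1.28). Polr3g and Ssbp2 were just outside that rule, with the largest adjusted p of limma over the 3 contrasts at 0.0535 and 0.113, against 0.0135 for Exoc2 just inside. The 5 genes (0.0307%) called higher in all 3 were Klhdc7a, Ndnf, Ndrg4, Mmp12 and Atp6v0e2, none of them on the chromosomes of the 5 genes.

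**Figure D2:**
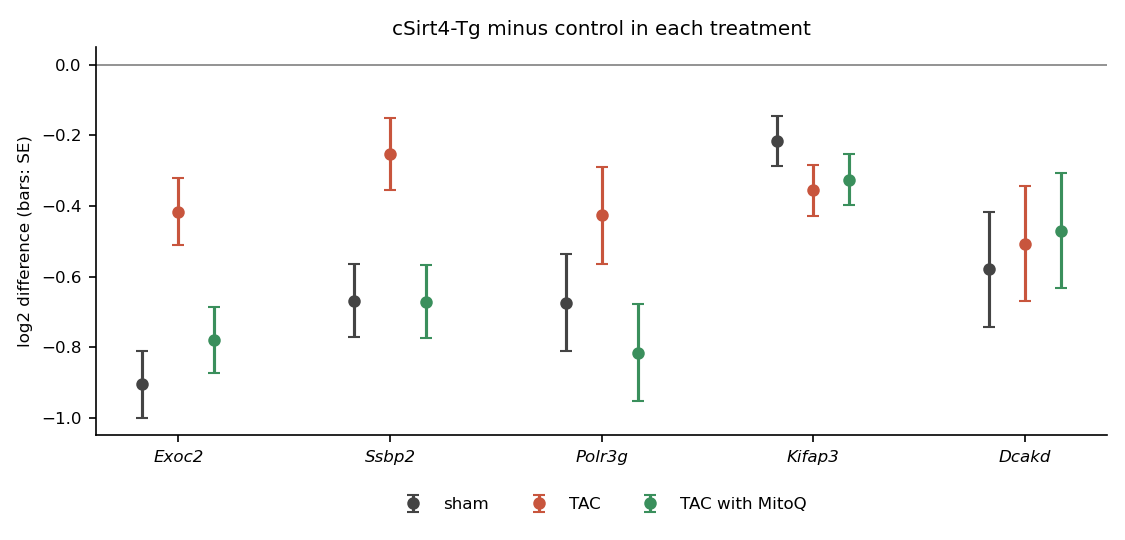
Log2 difference between cSirt4-Tg and control hearts (vertical axis) for each gene in sham, TAC and TAC with MitoQ hearts (colours), with the SE of the limma fit as bars. All 15 values are below 0, and for Exoc2, Ssbp2 and Polr3g the TAC value is the closest to 0.

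Ordered by mean, every group of Exoc2 overlapped the next in its range of libraries, from Tg-Sham (339), Tg-TAC-MQ (398) and Tg-TAC (444) to Con-TAC (589), Con-Sham (635) and Con-TAC-MQ (683). The ranges of neighbouring groups overlapped at each step for Ssbp2, Polr3g and Dcakd as well. For Kifap3 the highest Tg-TAC-MQ library (983) was below the lowest Tg-Sham library (988), and every other step overlapped.

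Some markers of other cells differed between the labels in sham hearts (0.873% of all genes were called) and after TAC (6.48%). None of 6 endothelial markers was called between the labels under any treatment. The summed level of 8 macrophage markers was 5781 to 7843 in Con-Sham and 10376 to 15517 in Tg-Sham, and 5 of the 8 were called higher in sham. The sum of 7 fibroblast markers was 25073 to 28447 in Con-Sham and 38454 to 55335 in Tg-Sham, with 1 of 7 called higher. The sum of 8 cardiomyocyte markers was 2133900 to 2387300 in Con-Sham and 1705300 to 2103700 in Tg-Sham, with none called. With MitoQ the cardiomyocyte sums overlapped, at 1266100 to 2209600 in controls and 1682700 to 1784800 in cSirt4-Tg hearts. So did the fibroblast sums (24625 to 111290 and 52396 to 60896) and the macrophage sums (4849 to 17667 and 11922 to 13574). None of the 8, 7 and 8 markers was called with MitoQ, where 0.0737% of all genes were. The median sums with MitoQ still differed. They were 38504 in controls and 57427 in cSirt4-Tg hearts for fibroblasts, and 7420 and 12738 for macrophages. For cardiomyocytes they were 1900100 and 1712200. After TAC 1 of 8 cardiomyocyte markers was called lower, and 3 of 7 fibroblast, 4 of 8 macrophage and 2 of 6 smooth muscle and pericyte markers higher. The sum of 4 atrial markers was 4314 to 7459 in Con-Sham and 9439 to 38054 in Tg-Sham, with none of the 3 tested called. The part of these cells in the differences of the 5 genes was not tested.

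Library names carry a number whose meaning the labels do not give, 7 to 14, 20 or 21, or 29 to 31. Within sham hearts of the first class (3 against 3) the log2 difference was -0.73 for Exoc2, -0.55 for Ssbp2, -0.49 for Polr3g, -0.17 for Kifap3 and -0.57 for Dcakd. In the class 29 to 31 (3 against 3) the values were -1.08, -0.79, -0.86, -0.26 and -0.59 in the same order of genes. After TAC only the first class held both labels (5 against 5), with -0.45, -0.32, -0.29, -0.40 and -0.81. All MitoQ hearts were of the class 20 or 21. The direction was the same in each class for each of the 5 genes. These are parts of the contrasts the genes were picked on, so the shared direction describes the choice.

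Between TAC and sham hearts of the cSirt4-Tg label, 4 of the 5 genes were called. TAC against sham was not a contrast the genes were picked on, although its libraries entered that choice. The p-values of TAC against sham are thus not free of the choice. In control hearts none of the 5 was called (5.3% of all genes were), with log2 differences of -0.11 for Exoc2, -0.01 for Ssbp2, 0.30 for Polr3g, -0.11 for Kifap3 and -0.15 for Dcakd. The limma adjusted p of these ran from 0.190 to 0.970, and Polr3g had an unadjusted p of 0.0362. In cSirt4-Tg hearts 3 of the 5 rose (7.91% of all genes rose) and 1 fell (8.77% fell).

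The mean of Exoc2 was 339 in Tg-Sham hearts and 444 after TAC, a log2 difference of 0.38 (SE 0.09, adjusted p of limma 0.0073), with 6 of 6 TAC libraries above the sham mean and 4 above every sham library. Ssbp2 rose from 462 to 609, by 0.41 (SE 0.10, adjusted p = 0.00795, 6 of 6 libraries). Polr3g rose from 126 to 188, by 0.55 (SE 0.14, adjusted p = 0.00748, 6 of 6). These are the 3 genes of chromosome 13. Kifap3 fell from 1049 to 882, a log2 difference of -0.25 (SE 0.07, adjusted p = 0.0148, 6 of 6), and Dcakd stood at 669 and 666 (log2 difference -0.08, adjusted p = 0.780). Fitted to the 12 libraries of the contrast alone, limma called none of the 5 in TAC against sham, with adjusted p from 0.0687 for Polr3g to 0.100 for Kifap3 among the 4. Over 13 alternatives the adjusted p of limma, edgeR or DESeq2 ran from 0.00247 to 0.0850 for Exoc2, from 0.00317 to 0.0979 for Ssbp2, from 0.00135 to 0.0687 for Polr3g and from 0.000595 to 0.100 for Kifap3. Without 4 libraries doubted in earlier work on these data (Con-Sham 2, Tg-TAC 4, Tg-TAC 6 and Con-TAC-MQ 5), the Exoc2 value was 0.23 (adjusted p = 0.0664), and the other 3 were called.

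Between MitoQ and vehicle TAC hearts of the cSirt4-Tg label, 2 of the 5 genes were called. MitoQ cannot be told apart there from the class of name numbers. In control hearts none of the 5 was called (3.23% of all genes were). Exoc2 was at 683 with MitoQ against 589 with vehicle (log2 difference 0.22, SE 0.09, adjusted p of limma 0.196). The other 4 differed by 0.04 for Ssbp2, -0.06 for Polr3g, 0.08 for Kifap3 and 0.02 for Dcakd. Of the control vehicle libraries Con-TAC 6 alone shared the class of name numbers of the MitoQ hearts. With the class as a covariate the Exoc2 value in control hearts was 0.13. In cSirt4-Tg hearts 2 fell (7.44% of all genes fell) and none rose (9.89%).

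Ssbp2 fell from 609 in Tg-TAC to 466 in Tg-TAC-MQ, a log2 difference of -0.38 (SE 0.10, adjusted p of limma 0.0110), and all 6 MitoQ libraries were below the vehicle mean. Polr3g fell from 188 to 134, a log2 difference of -0.45 (SE 0.14, adjusted p = 0.0213, 6 of 6). The Tg-Sham means were 462 and 126. The TAC and MitoQ contrasts share the Tg-TAC libraries. MitoQ against vehicle was not a contrast the genes were picked on, although the libraries of both groups entered that choice. Its p-values are thus not free of the choice. In the same contrast 2 of 8 cardiomyocyte and 2 of 4 Schwann cell markers were called higher, and 2 of 7 fibroblast, 1 of 8 macrophage and 1 of 6 smooth muscle and pericyte markers lower. Their part in these values was not tested. The values for Exoc2 (-0.14, adjusted p = 0.298), Kifap3 (0.11, adjusted p = 0.307) and Dcakd (0.06, adjusted p = 0.847) were not called. With libraries scaled on reads outside the mitochondrial genome, which moves the median of all genes by 0.0997, neither call held (adjusted p = 0.0532 for Ssbp2 at -0.28 and 0.0974 for Polr3g at -0.35). Without the 4 doubted libraries Ssbp2 was at -0.28 (adjusted p = 0.0695), and without Tg-TAC 2, Tg-TAC 5 or Tg-TAC-MQ 6 Polr3g missed the threshold (adjusted p = 0.0646, 0.0612 and 0.0515). Over 13 alternatives the adjusted p ran from 0.00364 to 0.529 for Ssbp2 and from 0.00112 to 0.0974 for Polr3g.

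No class of name numbers held both vehicle and MitoQ hearts of the cSirt4-Tg label, so the class and MitoQ cannot be told apart within it. With the class as a covariate, which leans on 1 control library, the MitoQ values in cSirt4-Tg hearts were -0.23 for Ssbp2 (adjusted p of limma 0.529) and -0.98 for Polr3g (adjusted p = 0.0190). The TAC values in cSirt4-Tg hearts were 0.39 for Exoc2, 0.37 for Ssbp2, 0.53 for Polr3g and -0.20 for Kifap3 in that fit, and all 4 were called.

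**Figure D3:**
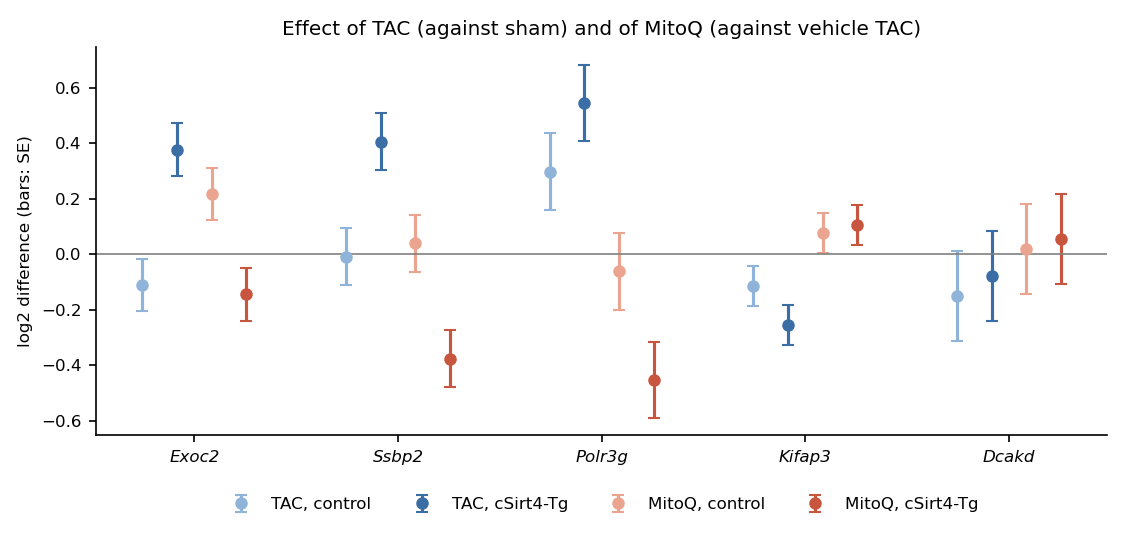
Log2 difference (vertical axis) of TAC against sham (blue) and of MitoQ against vehicle TAC (red) for each gene in control (pale) and cSirt4-Tg hearts (dark), with the SE of the limma fit as bars. In cSirt4-Tg hearts Exoc2, Ssbp2 and Polr3g lie above 0 for TAC and below 0 for MitoQ, and Kifap3 has the opposite signs.

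The 3 genes of chromosome 13 had a smaller difference between the labels after TAC than in sham hearts, by 0.49 (SE 0.13) for Exoc2, 0.41 (SE 0.15) for Ssbp2 and 0.25 (SE 0.19) for Polr3g. The same difference with MitoQ minus that after TAC was -0.36, -0.42 and -0.39, so it was larger again. This order was not particular to chromosome 13. Dmd on chromosome X had it too, at -1.15, -0.94 and -1.28 in sham, TAC and MitoQ hearts. Amph on chromosome 13 did not, at -1.34, -0.91 and -0.83. For Kifap3 the TAC minus sham value was -0.14 (SE 0.10) and for Dcakd 0.07 (SE 0.23). These values are made of the contrasts used to pick the genes and were not tested.

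The cSirt4-Tg TAC libraries differed in other ways too. Tg-TAC 4 and Tg-TAC 6 had the 2 highest Exoc2 values (544 and 528) and the 2 highest Ssbp2 values (701 and 682), while both were at 153 for Polr3g, among the 3 lowest of the group. Tg-TAC 4 had a summed level of 4 adipocyte markers of 8515, against at most 100 in the other 5 libraries, and the lowest cardiomyocyte sum (1003400). Tg-TAC 6 had the highest cardiomyocyte sum of the group (2224800) and the lowest fibroblast sum (35539). In cSirt4-Tg hearts 5 of 8 cardiomyocyte markers were called lower after TAC and 4 of 7 fibroblast markers higher. Of the other lists, 3 of 4 Schwann cell markers were called lower, and 2 of 6 smooth muscle and pericyte, 1 of 6 endothelial and 1 of 3 atrial markers higher. The part of this in the TAC values of the 5 genes was not tested.

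The genes around the 5 on the chromosome were compared in the same way. Within 1 Mb of a start position 134 genes were listed and 86 passed the filter on low counts. None of the 86 was called between the labels in sham (0.873% of all genes were), and none with MitoQ (0.0737%). With an unadjusted p of limma under 0.05 there were 10 in sham (13.1% of all genes) and 5 with MitoQ (4.11% of all genes), and edgeR and DESeq2 on the recovered reads called 0 and 0 in sham and 0 and 1 with MitoQ. After TAC 8 of 86 were called (9.3%, against 6.48% of all genes), 2 lower and 6 higher. That count ran from 0 without Tg-TAC 4 to 20 without Tg-TAC 6, and was 0 in the fit to the 12 libraries alone.

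For Exoc2 the nearest tested genes were Irf4, a transcription factor of lymphoid and myeloid cells, 46942 bases from it, and the forkhead gene Foxf2. Gm5447, 70 bases from Exoc2 on the other strand, did not pass the filter on low counts. Irf4 was at 25.8 ± 10.5 in Con-Sham and 41.4 ± 23.9 in Tg-Sham, with log2 differences of 0.57, 0.65 and 0.94 in sham, TAC and MitoQ hearts (SE 0.43, adjusted p of limma from 0.335 to 1.00). Foxf2, with a mean of 6.37 over all libraries, was at 1.01, 0.73 and -0.65 (SE 0.55). Neither followed Exoc2 in direction in sham or after TAC, and none of the 8 tested neighbours was called.

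Mblac2 starts 327 bases from the start of Polr3g and runs the other way, so the stretch printed above lies between them. It was at 262 ± 54.1 in Con-Sham and 268 ± 41.7 in Tg-Sham, and at 232 ± 52.0 in Con-TAC-MQ and 243 ± 35.4 in Tg-TAC-MQ. Its log2 difference between the labels was 0.04 in sham and 0.09 with MitoQ, where Polr3g was at -0.67 and -0.82. After TAC it was -0.45 (SE 0.16, adjusted p of limma 0.0678), close to -0.43 for Polr3g. Lysmd3, on the other side, was at -0.09, -0.22 and -0.11 (SE 0.10, none called).

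For Ssbp2 the nearest tested genes were Gm4130 (0.83, 0.00 and 0.17, SE 0.40) and 4833422C13Rik, which overlaps the end of Ssbp2 by 1765 bases on the other strand. 4833422C13Rik was at 0.03, -0.32 and 0.03 (SE 0.28), though reads of overlapping genes can be told apart only where counting used the strand, which the sources used here do not state. Atp6ap1l, a low-count gene whose start is 577 kb from that of Ssbp2, was at 5.92 ± 6.08 in Con-Sham and 20.9 ± 8.24 in Tg-Sham, 2.68 ± 2.13 in Con-TAC and 13.2 ± 5.85 in Tg-TAC, and 2.85 ± 2.89 in Con-TAC-MQ and 17.8 ± 9.75 in Tg-TAC-MQ. Its log2 differences were 2.10, 2.08 and 2.60 (SE 0.58, adjusted p of limma 0.0691, 0.0318 and 0.0723), so it was called after TAC alone. Atg10, an autophagy gene in the same window, was at -0.32, -0.47 and -0.18 (SE 0.14) and was called after TAC (adjusted p = 0.0382). Leaving out Tg-TAC 4 ended both TAC calls (adjusted p = 0.0896 and 0.147).

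Kifap3 lay between Mettl11b (-0.29, -1.41 and -0.42, SE 0.58) and Scyl3 (-0.12, 0.16 and -0.16, SE 0.11), neither of them called. Within 1 Mb of it the thiamine transporter gene Slc19a2 was called higher after TAC (0.38, adjusted p of limma 0.0411) and Blzf1 lower (-0.23, adjusted p = 0.0415). Slc19a2 had nearly the same value in sham (0.33) and with MitoQ (0.32), where it was not called. Dcakd shares 144 bases with Nmt1, an N-myristoyltransferase gene on the other strand, which was at 0.01, 0.03 and -0.11 (SE 0.08) with 2509 ± 133 in Con-Sham and 2524 ± 135 in Tg-Sham. Kif18b on the other side was at 0.27, 0.25 and -0.07 (SE 0.74). Of the 42 tested neighbours of Dcakd, Grn, Fam171a2, Fzd2 and Arf2 were called higher after TAC, from 0.28 for Arf2 to 0.80 for Fzd2. None of the 6 calls named here for Kifap3 and Dcakd held without Tg-TAC 4 (adjusted p from 0.0504 to 0.153) or in the fit to the 12 libraries alone.

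**Figure D4:**
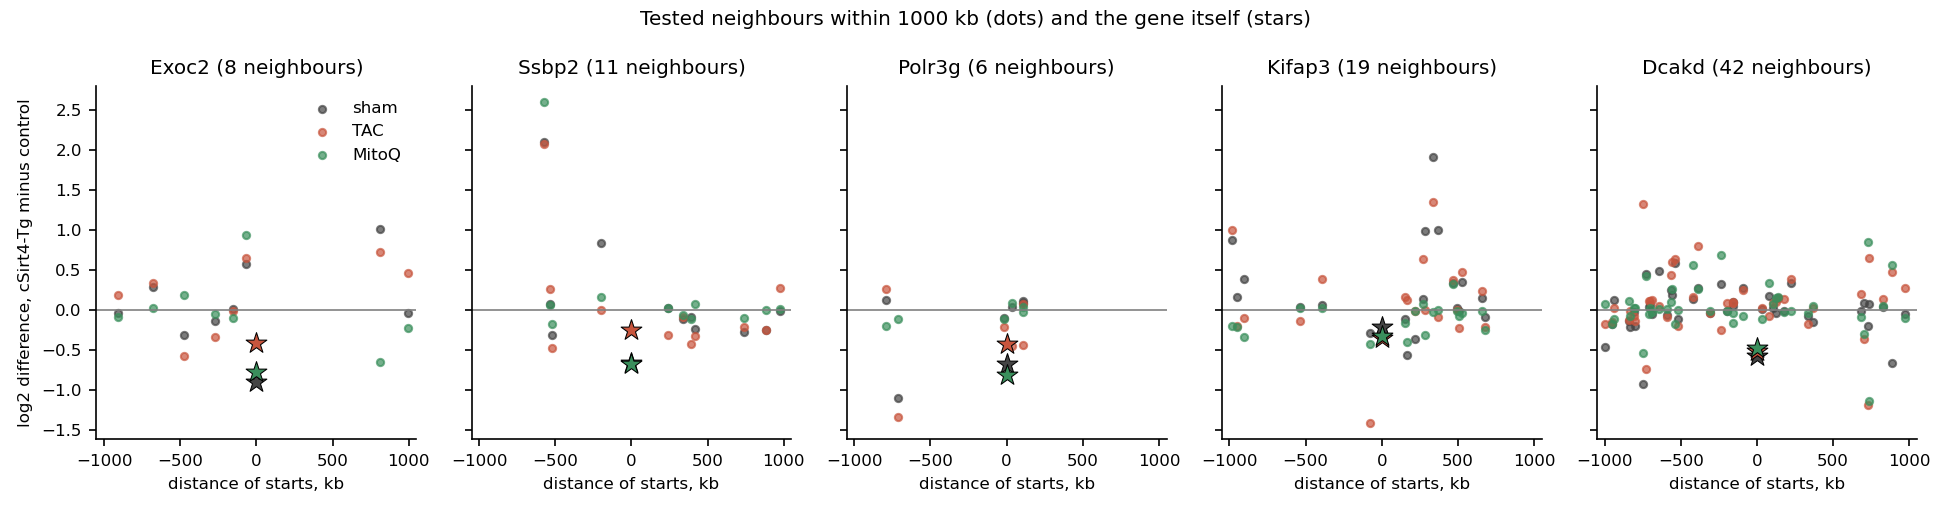
Log2 difference between cSirt4-Tg and control hearts (vertical axis) of the tested genes within 1000 kb of each gene (dots) and of the gene itself (stars), against the distance between start positions in kb (horizontal axis), coloured by treatment. The dots scatter around 0 on both sides of the stars, and the 3 high points near Ssbp2 are Atp6ap1l at 2.10, 2.08 and 2.60.

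Over a wider window of 5000 kb, 1 of 366 tested genes was called in sham (Tmem106a, 0.82, near Dcakd), 33 after TAC and none with MitoQ. These are 0.273%, 9.02% and 0%, against 0.873%, 6.48% and 0.0737% of all genes. A looser count, made after the values were seen, took genes that were lower in all 3 contrasts with an unadjusted p of limma under 0.05 in each. It held 36 genes (0.221% of all genes tested), of which 5 were among the 640 tested genes of chromosome 13 (0.781%). These 5 were Exoc2, Polr3g, Ssbp2, Amph and B3galnt2, in 4 separate bins of 10 Mb. The first 3 of these are among the genes picked. Chromosomes 1 and 11 held 1 of 998 and 2 of 1288, with 1 picked gene on each. The next highest shares were 0.61% on chromosome 16, 0.524% on 14, 0.516% on 12 and 0.482% on 3, with no picked gene. No test of the share by chromosome was made, since the genes were picked with these results known.

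Genes whose products work with the 5 proteins were taken from lists of known partners, which also hold paralogs such as Polr3gl. Over 6 lists of partner genes, none of the other members was called between the labels in sham (0.873% of all genes were) or with MitoQ (0.0737%). Of 14 other exocyst genes and regulators, 0 were called in sham, where the median log2 difference was 0.02 (0.00 for all genes) and the lowest -0.14. Exoc6, another exocyst subunit, was called lower after TAC, at 1204 against 1471 (-0.30, SE 0.07, adjusted p of limma 0.0196). Of the 29 other RNA polymerase III genes none was called under any treatment. Polr3gl, the paralog of Polr3g, was at 716 ± 99.3 in Con-Sham and 651 ± 84.1 in Tg-Sham, and its log2 difference was -0.14, -0.09 and -0.17 (SE 0.13).

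The 3 tested kinesin-2 motor genes Kif3a, Kif3b and Kif3c were at 0.03, 0.18 and 0.14 in sham, and none was called under any treatment. Of 19 intraflagellar transport genes, Ift46 (0.37, adjusted p of limma 0.0364) and Wdr19 (1.16, adjusted p = 0.0137) were called higher after TAC. The Ssbp2 list of 10 other genes holds Ssbp1, Ssbp3 and Ssbp4 beside LIM-domain partners, and none of the 10 was called. Ssbp3 was at -0.10, -0.14 and -0.07 (SE 0.07), Ssbp4 at 0.23, 0.25 and 0.04 (SE 0.12) and the mitochondrial Ssbp1 at -0.09, -0.15 and 0.05 (SE 0.10). Ldb1, which Ssbp2 binds, was at -0.05, 0.13 and 0.07 (SE 0.09). In the coenzyme A list of 10 genes, the pantothenate kinase gene Pank2 was called higher after TAC (0.25, adjusted p = 0.0313), and Coasy, which carries the last 2 steps of the pathway, was at -0.06, 0.18 and -0.05 (SE 0.10). The 4 calls after TAC (6.48% of all genes were called) fell to 0 without Tg-TAC 4 and rose to 17 without Tg-TAC 6.

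**Figure D5:**
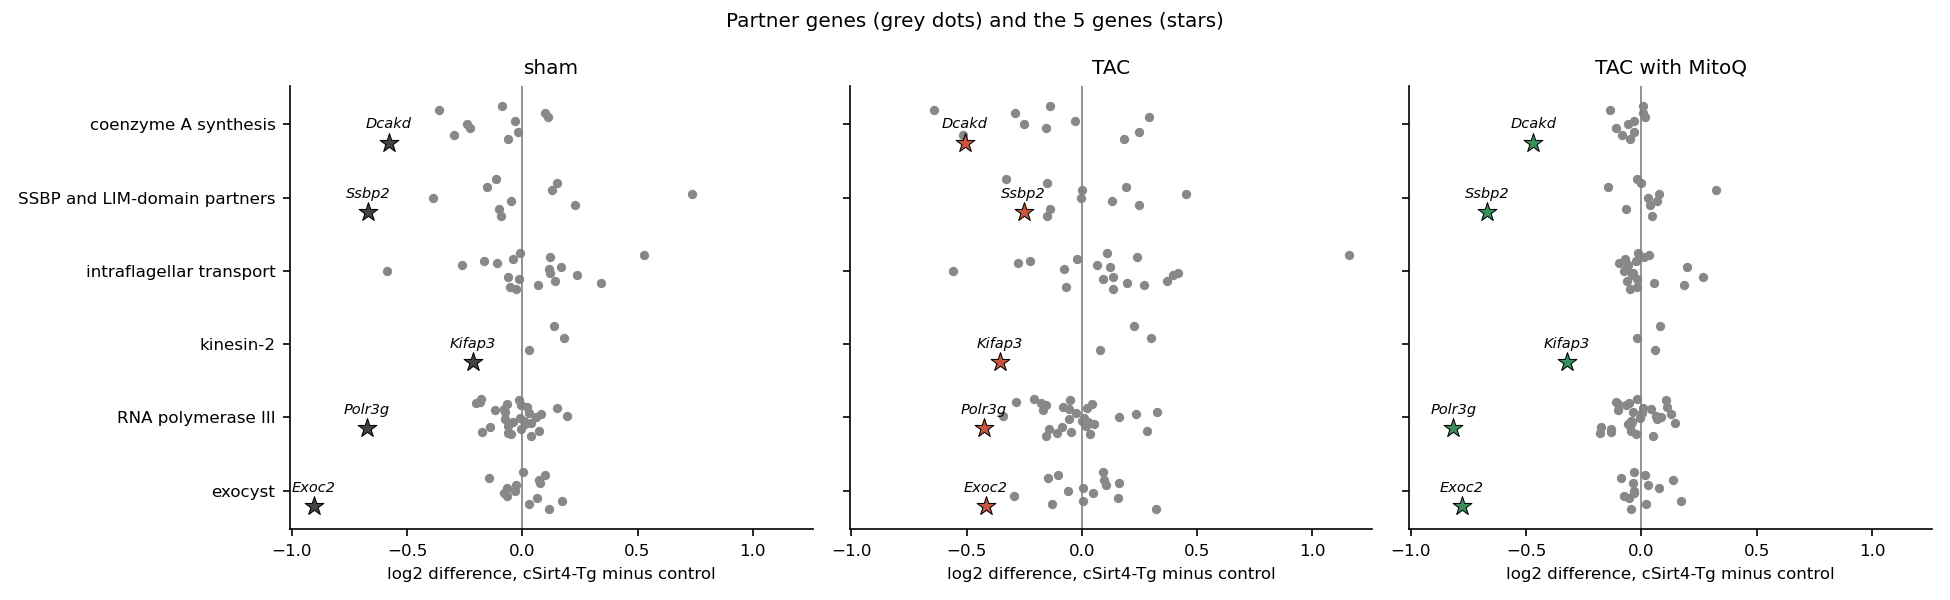
Log2 difference between cSirt4-Tg and control hearts (horizontal axis) of the genes in each partner list (grey dots) with the listed gene of the 5 (stars), in sham, TAC and TAC with MitoQ hearts. In sham and MitoQ hearts each of the 5 stars lies left of every dot in its row, and the 5 were picked as lower in these contrasts. After TAC Slc25a42 (-0.641) and Pank1 (-0.515) lie left of Dcakd (-0.507), and Gata2 (-0.331) left of Ssbp2 (-0.253).

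In TAC against sham within cSirt4-Tg hearts, 3 of the 14 other exocyst genes rose and 1 fell, where 7.91% of all genes rose and 8.77% fell. Rala and Ralb, the GTPases that bind Exoc2, rose by 0.19 and 0.27 (adjusted p of limma 0.0267 and 0.0294) and Rab3ip by 0.48 (adjusted p = 0.00207), while Exoc6 fell by 0.21 (adjusted p = 0.0415). The LMO factor gene Lmo4 rose by 0.43 with Ssbp2 (adjusted p = 0.00168) and fell by 0.50 with MitoQ (adjusted p = 0.000306). Of the RNA polymerase III genes none rose after TAC beside Polr3g, and Gtf3c1 fell by 0.50 (adjusted p = 0.00316). In the coenzyme A list 2 of 10 rose and 3 fell. Pank2 rose by 0.19 and Ppcdc, a decarboxylase of the pathway, by 0.32 (adjusted p = 0.0470 and 0.0297), and the vitamin transporter gene Slc5a6 fell by 0.54 (adjusted p = 0.0239). Pank1 fell by 0.78 and the mitochondrial coenzyme A carrier gene Slc25a42 fell by 0.81 (adjusted p = 0.00362 and 0.0172). With MitoQ against vehicle in cSirt4-Tg hearts 9.89% of all genes rose and 7.44% fell. There 3 rose and 1 fell in each of the lists of 14 exocyst, 29 RNA polymerase III and 10 coenzyme A genes. Of 19 intraflagellar transport genes 2 rose and 4 fell, and of 10 in the Ssbp2 list 1 fell. Pank1 and Slc25a42 rose by 0.70 and 0.80 (adjusted p = 0.00532 and 0.0171). In these hearts MitoQ cannot be told apart from the class of name numbers. Control hearts also had calls in these lists after TAC (5.3% of all genes were called). There 1 of 14 exocyst genes and 1 of 10 in the Ssbp2 list rose. Of 29 RNA polymerase III genes 1 fell, and of 10 coenzyme A genes 1 fell. The control log2 differences reached 0.40 in the exocyst list, -0.40 in the RNA polymerase III list and -0.56 in the coenzyme A list.

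Across the 36 libraries the chromosome 13 genes were among the genes most like each other. Among 10974 genes with a mean of at least 100, Exoc2 was most like Dmd (Pearson r 0.91), Ssbp2 (0.86) and Polr3g (0.75). Ssbp2 was most like Exoc2, Dmd (0.81) and Polr3g (0.77), and Polr3g was most like Ssbp2, Dmd (0.76) and Exoc2. Kifap3 was most like Ctnna3 (0.79), Pnpla8 (0.79) and Cdc73 (0.79), and Dcakd was most like Ipo13 (0.88) and Znrf1 (0.87). The points share the 6 groups, so a gene that differs between the labels is like the others for that alone. Taken as deviations from the group means, r was 0.42 for Exoc2 with Ssbp2, 0.05 for Exoc2 with Polr3g, 0.11 for Ssbp2 with Polr3g, 0.44 for Exoc2 with Kifap3 and between -0.15 and 0.10 for the 6 other pairs.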

How the data were processed

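Whole mouse hearts were frozen, RNA was purified on a Qiagen column kit for fibrous tissue, and libraries came from a directional NEB kit, per the labels' protocols. Reads were handled with Trim Galore and STAR on mm39, per the submitters' processing notes. The sources used here name no version of either and no counting tool. The authors deposited 1 table of normalized read counts (a signal never below 0) for 36 libraries. Divided by the worth of 1 read, 100% of values were whole within 0.01 of a read, so they are reads over 1 factor per library, from 14834719 to 60010648 reads.

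From this table, limma 3.58.1 (R 4.3.3) was fitted to log2(value + 1) with 1 mean per group, a trend and robust moderation. The 16275 genes that reached 10 in 6 or more libraries were tested, the 5 genes among them. Adjusted p-values are Benjamini-Hochberg over all of these, two-sided, with a threshold of 0.05. Fold changes on this scale understate those of low-count genes. Alternatives were edgeR 4.0.16 and, likewise on recovered reads, DESeq2 1.42.0, and other pseudocounts, filters, scalings, weights, covariates, windows and left-out libraries.

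The 5 genes and the lists of partners and markers were chosen with earlier results of these data known. Named genes were the 5, Sirt4, the nearest tested gene on each side, called genes within 1 Mb, genes called in all 3 genotype contrasts, up to 3 with the highest r (1 is not reported here), close paralogs and called partners, and others were left to counts. Ldb1, Coasy, the Kif3 genes, Tmem106a, Amph and B3galnt2 were named after their values were seen. Promoter sequences and motifs come from a RefSeq table on GRCm38.p6, which held all 5 genes, and gene coordinates are those deposited.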

Additional observations from a re-analysis of the deposited data

Results flagged for a closer look

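In 144 sets of 6 libraries, 1 gene in 1 group each, 13 had a library far from the other 5 by a test of the gap over the range, which chance alone meets in about 1 set in 20. Of the 5 genes, Exoc2 was low in Con-TAC 5 (468, others 578 to 632), and Kifap3 was high in Tg-Sham 4 (1186, others 988 to 1059) and low in Tg-TAC-MQ 6 (874, others 943 to 983). Sirt4 was high in Con-Sham 2 (606, others 349 to 398) and in Tg-TAC 6 (473, others 313 to 370).

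Among the neighbours, Irf4 was high in Tg-TAC 4 (239, others 14.1 to 32.4), the library with the high adipocyte sum. Mettl11b was high in Tg-TAC 6 (63.6, others 2.48 to 10.8), and Gm4130 was high in Con-TAC 5 (28.5, others 8.78 to 13.2), the library with the low Exoc2 value. In Con-TAC-MQ 3 Mblac2 was low (127, others 246 to 263) and Grn high (3611, others 2331 to 2775). Foxf2 was high in Tg-TAC-MQ 3 (10.97, others 2.60 to 4.59), Slc19a2 in Tg-Sham 1 (424, others 289 to 337) and Fzd2 in Tg-Sham 6 (176, others 93.1 to 121).

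Exoc2 libraries lay on opposite sides of the sham mean after TAC in the 2 labels: all 6 Con-TAC libraries were below the Con-Sham mean and all 6 Tg-TAC libraries above the Tg-Sham mean. The 2 log2 differences were 0.488 apart, and this was not tested. The control value (-0.11) was not called.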

How the results depend on the processing

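The log2 differences of the 5 genes between the labels were below 0 under all 13 alternatives and without any 1 library, but calls changed: 3 of 8 were lost under at least 1 of these (Exoc2 and Kifap3 after TAC with the 12 libraries, Polr3g in sham without Tg-Sham 6), and all 7 uncalled values were called under at least 1. The numbers in the titles do not pair the libraries (correlation of deviations from -0.48 to 0.31). With a replicate block, 4 of 5 genes were called for TAC in Tg and 2 for MitoQ in Tg, as without it, and genes called higher in all 3 genotype contrasts went from 5 to 3. The fit to the 12 libraries of each contrast alone gave 0 of 5 genes for TAC in Tg and 1 for MitoQ in Tg, where scaling outside the mitochondrial genome, leaving out the 4 doubted libraries, and leaving out single libraries (1 to 2) also gave 1. Genes called lower in all 3 genotype contrasts numbered 42 with array weights, 4 with DESeq2, 0 with the 12 libraries and 2 to 4 without single libraries.

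Neighbours called in sham went from 0 to 1 with a pseudocount of 10, the name class, the 12 libraries or the window of 5000 kb, to 4 with array weights, and to 0 to 1 without single libraries. With MitoQ they went from 0 to 1 with a pseudocount of 10, the name class or DESeq2, to 2 with array weights, and to 0 to 1 without single libraries. After TAC the 8 neighbours became 4 with no filter, 5 with the mitochondrial scaling, 19 with the name class, 20 with array weights, 13 with DESeq2, 0 with the 12 libraries, 2 within 500 kb, 33 within 5000 kb, and 0 to 20 without single libraries. Called partners in sham went from 0 to 2 with array weights and 5 with the 12 libraries. After TAC the 4 partners became 2 with no filter, 14 with the name class, 15 with array weights, 10 without the 4 doubted libraries, 0 with the 12 libraries, and 0 to 17 without single libraries. The cause of these changes was not tested.

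Some uncalled values near 0 changed sign. Ssbp2 for TAC in Con was 0.0952 with the mitochondrial scaling, 0.0424 with array weights, 0.0188 without the 4 doubted libraries and -0.0426 to 0.0188 without single libraries. Dcakd with the name class was 0.130 for TAC in Con and 0.0180 for TAC in Tg, which ran from -0.248 to 0.0839 without single libraries. Dcakd for MitoQ in Con was -0.0587 with array weights, -0.0110 with edgeR, -0.0111 with DESeq2 and -0.118 to 0.0907 without single libraries. For MitoQ in Tg it was -0.0313 with edgeR, -0.0308 with DESeq2 and -0.105 to 0.227 without single libraries. Polr3g for MitoQ in Con was 0.000486 with the mitochondrial scaling and -0.146 to 0.0244 without single libraries, and Exoc2 for MitoQ in Tg was 0.000445 without the 4 doubted libraries. Sirt4 ran from -0.157 to 0.00845 in sham and from -0.0391 to 0.0154 with MitoQ without single libraries. For MitoQ in Tg, Kifap3 was called with the mitochondrial scaling (0.21) and array weights (0.17), and Dcakd with the name class (0.92).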
